A study of Mus musculus with 2 samples.

Results

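The Iroquois genes of the mouse, Irx1 to Irx6, encode homeodomain transcription factors of the TALE class, and they lie in 2 chromosomal clusters of 3 genes each. All 6 were found by symbol among the 27998 genes counted, and all 6 were described whatever their level. On GRCm38.p6, the chromosome 13 cluster holds Irx1 (chr13:71958232-71963723), Irx2 (chr13:72624430-72634196) and Irx4 (chr13:73259589-73269622). The chromosome 8 cluster holds Irx3 (chr8:91798511-91801654), Irx5 (chr8:92357796-92361456) and Irx6 (chr8:92674289-92680956). Each is annotated as protein-coding. The lncRNA Gm20554 overlaps the start of the annotated interval of Irx2, and reads of the overlap may be uncertain. Gm20554 was counted at 0.281 and 0.504 CPM in the 2 libraries, where CPM are the unique molecular identifiers (UMIs) of a gene per 1000000 UMIs counted.

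Single-cell 3′ RNA-seq was done on pharyngeal apparatus and heart dissected from Swiss Webster embryos at E9.5. The control library (Ctrl) came from Mesp1Cre;Rosa26-GFPflox/+ embryos, and the other (cKO) from embryos with the same Cre and reporter alleles and Tbx1flox/flox in addition. Both groups therefore share Mesp1Cre, which acts in the early mesoderm that transcribes Mesp1, and both were sorted for GFP+ DAPI- cells. Per the study's methods each library came from a pair of embryos, and the cKO pair had slightly more somites, so genotype, stage and embryo cannot be told apart. With 1 library a group the genotypes were compared without a test. Intervals in parentheses are 95% intervals and cover counting error only.

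Iroquois factors bind DNA through an atypical homeodomain and are best known for dividing fields of cells, such as the neural plate, limb and heart, into regions. In the heart, Irx4 is a marker of ventricular myocardium, and Irx3 and Irx5 take part in conduction and repolarization. Genes of a cluster share long-range regulatory DNA, and neighbours such as Irx3 and Irx5 are often transcribed together. It was asked where each member was transcribed in the Mesp1 lineage, whether members of a cluster went together, and how their levels differed between the libraries.

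After filtering, 6591 Ctrl cells and 8969 cKO cells were kept, with medians of 16854 and 14195 UMIs per cell. The libraries shared 15 cell barcodes, 11 of them among kept cells. Cells with Xist UMIs and no Y-linked UMI were 51.1% of kept Ctrl cells and 56.6% of kept cKO cells, so the sex make-up of the pools differed. Since a library held a pair of embryos, cells with Xist UMIs alone and cells with Y-linked UMIs alone may each stand for a single embryo, and sex and embryo cannot be told apart in the values given for these sets. Tbx1 itself was higher in the library labelled cKO over all kept cells, although not in every class. Over all kept cells it was at 26.5 CPM in Ctrl and 44.6 in cKO, in multilineage progenitor-like cells at 59.5 and 121, and in branchiomeric muscle progenitor-like cells at 113 and 99.3. The sources used here do not say whether 3′ reads cover the deleted part of Tbx1, so this count does not check the label.

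Clusters were made without the 6 members among the clustering genes and were named, with the ending -like, from marker lists. The classes used below are multilineage progenitors (MLP), branchiomeric muscle progenitors (BrM), somatic mesoderm with the anterior second heart field (SoM/aSHF), posterior second heart field (pSHF), cardiomyocytes (CM), endothelium, epicardium, paraxial mesoderm and erythroid cells. The last were 158 cells of the cKO library alone. Within the CM-like class 1 cluster was ventricular CM-like, led by Myl2, Myh7 and Nppa, and within the endothelium-like class 1 was endocardium-like, with Hapln1 and Nfatc1 among its leading genes. Clusters that met no naming rule held 22.0% of kept Ctrl and 29.9% of kept cKO cells. These names were rebuilt here and may differ from those of the study. The MLP-like class held 725 Ctrl and 1185 cKO cells, the BrM-like class 668 and 788, the endocardium-like cluster 142 and 151, and the ventricular CM-like cluster 61 and 101.

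The 6 genes had different distributions. By the level of whole classes, Irx1 and Irx3 were highest in MLP-like cells, and Irx2 in MLP-like and ventricular CM-like cells. Irx5 was high in the same progenitors as Irx3 and, in addition, in endocardium-like cells, where Irx3 was nearly absent. Irx4 was found mainly in ventricular CM-like cells. Irx6 was scarce and was found mainly in BrM-like and endocardium-like cells. Levels are CPM of the population in that library. They are compared within a gene across populations, since 3′ counting may capture different transcripts with different efficiency.

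**Figure D1:**
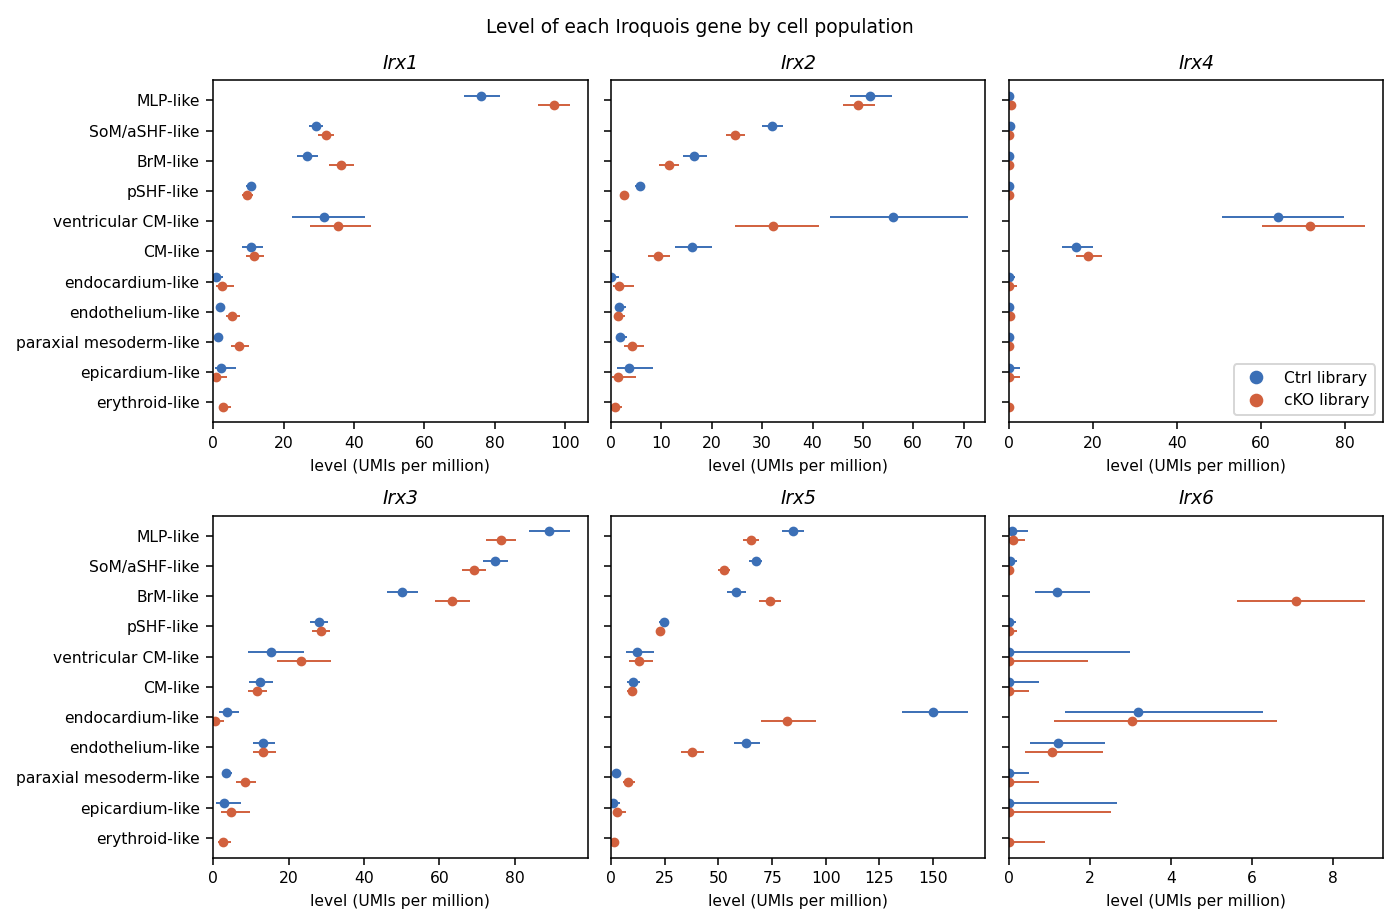
Level of each Iroquois gene (x axis, CPM, a linear scale that differs between panels) in each cell population (y axis) of the Ctrl (blue) and cKO (orange) libraries. Points are levels and bars are 95% Poisson intervals, and the CM-like and endothelium-like classes include the ventricular and endocardium-like clusters. In Ctrl endocardium-like cells Irx5 was at 150.1 and Irx3 at 3.58.

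Irx1, of the chromosome 13 cluster, has known roles in patterning of several organs. In MLP-like cells Irx1 was at 76.3 (71.4 to 81.4) CPM in the Ctrl library and at 96.8 (92.4 to 101) in the cKO library, above every other named population. Ventricular CM-like cells had 31.6 (22.5 to 43.2) and 35.3 (27.4 to 44.9), SoM/aSHF-like cells 29.1 and 32.0, and BrM-like cells 26.7 and 36.2. The intervals of these 3 populations overlapped in each library, and they could not be ordered. The SoM/aSHF-like level is a mixture of 3 clusters, at 53.3 and 65.5 in the one led by Slc2a3, Ppp2r2b and Dkk1, 29.0 and 30.2 in the one led by Gm14226, Nudt11 and Prrx1, and 5.002 and 3.61 in the one led by Gal, Rgcc and Hoxc5. pSHF-like cells had 10.7 and 9.68, and endothelium-like, paraxial mesoderm-like and epicardium-like cells lay between 0.684 and 7.26.

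Irx2, the neighbour of Irx1 in the genome, had its highest class levels in a cardiac and a pharyngeal population. Ventricular CM-like cells had 55.9 (43.5 to 70.8) CPM of Irx2 in the Ctrl library and 32.2 (24.6 to 41.3) in the cKO library. MLP-like cells had 51.5 (47.5 to 55.7) and 49.1 (46.0 to 52.4). In the Ctrl library the intervals of this pair overlapped, while in the cKO library MLP-like cells had more Irx2. SoM/aSHF-like cells had 32.0 and 24.6, a mixture of 56.0 and 40.3 in the Slc2a3-led cluster, 32.8 and 29.6 in the Gm14226-led and 6.54 and 4.3995 in the Gal-led cluster. The level of the Slc2a3-led cluster was thus at or above that of the ventricular CM-like cells, with overlapping counting intervals. BrM-like cells had 16.5 and 11.4. No Irx2 UMI was counted in the 142 Ctrl endocardium-like cells, where 3 UMIs, the limit set here for a count of 0, are 1.19 CPM, and 3 were counted in the cKO cells.

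Irx4, the ventricular member, was the most restricted of the 3. Over all kept cells 87 Irx4 UMIs were counted in the Ctrl library and 173 in the cKO library, and ventricular CM-like cells held 79 and 136 of them. The level there was 64.0 (50.7 to 79.8) and 71.7 (60.2 to 84.8) CPM. The cardiomyocyte cluster led by Myh6, Actc1 and Tnnc1 had 0 and 4 Irx4 UMIs, and the one led by Myh7, Tdgf1 and Ankrd1 had 1 and 3. Of the rest in the cKO library, 14 lay in an unnamed cluster led by Crym, Fst and Ebf2, which had 0 in Ctrl, and 9 in MLP-like cells. An Irx4 UMI was found in 62.3% of Ctrl and 68.3% of cKO ventricular CM-like cells, at medians of 18695 and 16494 UMIs per cell. None was found in the 158 erythroid-like cells, with a median of 25232.5. After each cell was thinned to 5000 UMIs the shares were 23.7% (13.6 to 36.6) and 28.7% (20.1 to 38.6), and the intervals overlapped.

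The ventricular CM-like cluster thus held all 3 genes of the chromosome 13 cluster. Together they gave 84.6% (79.2 to 89.1) of the Iroquois UMIs of these cells in the Ctrl library and 79.3% (74.5 to 83.5) in the cKO library. In MLP-like cells that share was 42.4% (40.8 to 44.0) and 50.8% (49.5 to 52.2), and in BrM-like cells 28.4% and 24.8%. The Myh6-led cluster had almost no Iroquois UMIs, with 2 and 1 of Irx1 and 6 and 9 of Irx3. Among epithelial markers, Cdh1 and Sox2 were at 0 in ventricular CM-like cells of both libraries, while the list of 6 summed to 191 and 262 CPM. The part of other cells in these levels was not tested.

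Irx3, of the chromosome 8 cluster, was at 89.0 (83.7 to 94.6) CPM in Ctrl MLP-like cells and at 76.4 (72.5 to 80.4) in cKO MLP-like cells. SoM/aSHF-like cells had 74.9 (71.7 to 78.2) and 69.1 (66.0 to 72.3), and BrM-like cells 49.99 (46.0 to 54.2) and 63.2 (58.7 to 68.0). Among the SoM/aSHF-like clusters the Slc2a3-led had 86.5 and 82.7, the Gal-led 82.6 and 80.2 and the Gm14226-led 62.0 and 48.7. In the cKO library the Slc2a3-led and Gal-led levels were above that of the MLP-like class. Their counting intervals overlapped the MLP-like interval, so these could not be ordered. In the Ctrl library the class intervals of MLP-like, SoM/aSHF-like and BrM-like cells were separate. In the cKO library those of SoM/aSHF-like and BrM-like cells overlapped. pSHF-like cells had 28.0 and 28.5 and CM-like cells 12.5 and 11.6. Epicardium-like cells had 2.88 and 4.79, and the erythroid-like cells of the cKO library had 2.65.

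Irx5 went beside Irx3 through the progenitor classes. It was at 84.6 (79.5 to 90.0) CPM in Ctrl and 65.2 (61.6 to 68.9) in cKO MLP-like cells, at 67.3 and 52.6 in SoM/aSHF-like cells, at 58.3 and 73.9 in BrM-like cells and at 24.5 and 22.9 in pSHF-like cells. The share of Irx5 among the UMIs of Irx3 and Irx5 was 48.7% (46.6 to 50.9) and 46.0% (44.1 to 48.0) in MLP-like cells. It was 47.4% (45.8 to 48.9) and 43.3% (41.6 to 45.0) in SoM/aSHF-like cells and 53.8% (51.0 to 56.6) and 53.9% (51.4 to 56.4) in BrM-like cells. The share was thus higher in BrM-like cells than in the other classes of this set in each library, without overlap of the intervals.

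The endocardium, the inner lining of the heart, differed. Endocardium-like cells had 150.1 (135 to 166) CPM of Irx5 in the Ctrl library and 81.7 (69.6 to 95.4) in the cKO library. This was the highest Irx5 level of the named populations in each library, although in the cKO library its interval overlapped that of BrM-like cells. Irx3 was at 3.58 (1.64 to 6.801) and 0.508 (0.0129 to 2.83) in the same cells. The Irx5 share was therefore 97.7% (95.6 to 98.9) and 99.4% (96.6 to 99.98). The other cluster of the endothelium-like class, led by Cldn5, Emcn and Sox18, had Irx3 at 19.1 and 20.2 and Irx5 at 9.93 and 13.9, so it held both genes, with an Irx5 share of 34.2% (25.8 to 43.4) and 40.8% (32.1 to 49.9). The epithelial markers Cdh1, Foxa2 and Sox2 were at 0 in endocardium-like cells of both libraries, the other 3 of that list brought its sum to 8.76 and 15.7 CPM, and 5 of 6 neural crest markers, Sox10 and Foxd3 included, were at 0 as well.

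**Figure D2:**
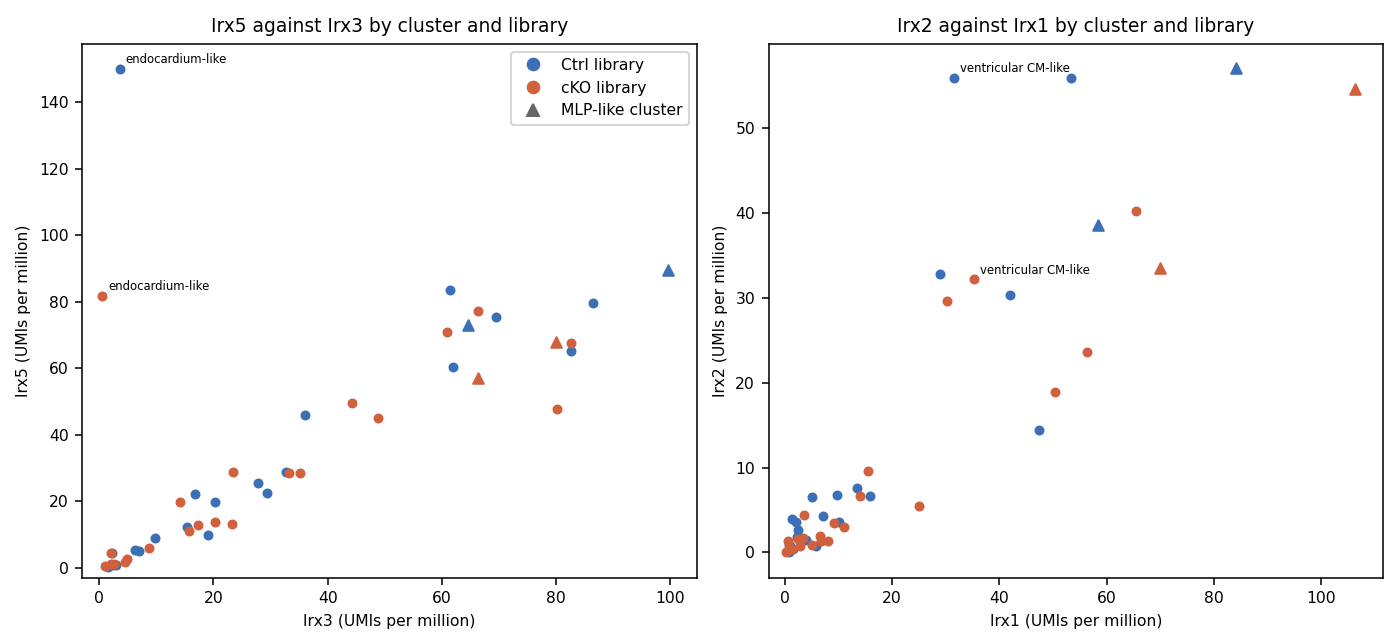
Levels (CPM) of Irx5 against Irx3 (left) and of Irx2 against Irx1 (right), with 1 point for each cluster of at least 50 cells in a library (blue, Ctrl; orange, cKO) and triangles for MLP-like clusters. The endocardium-like cluster stands apart at the left edge of the first panel, with Irx5 at 150.1 and 81.7 and Irx3 at 3.58 and 0.508.

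Irx5 was not detected in every endocardium-like cell. An Irx5 UMI was found in 54.2% (45.7 to 62.6) of Ctrl cells and 31.8% (24.5 to 39.9) of cKO cells, at medians of 16778.5 and 12971 UMIs per cell. Thinned to 5000 UMIs, the shares were 39.3% (31.1 to 47.9) and 23.6% (17.1 to 31.3), and these intervals overlapped slightly. Erythroid-like cells, which should lack the gene, had 3.16% unthinned and 1.27% (0.154 to 4.50) thinned, below both.

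Irx6 gave 24 UMIs in the Ctrl library and 93 in the cKO library. BrM-like cells held 14 of the former and 82 of the latter, at levels of 1.19 (0.652 to 2.001) and 7.09 (5.64 to 8.80) CPM. Endocardium-like cells held 8 and 6, at 3.18 and 3.05. No Irx6 UMI was counted in pSHF-like, CM-like or epicardium-like cells of either library, where the limit of 3 UMIs is 0.145 and 0.166 CPM in pSHF-like cells. In the fewer epicardium-like cells that limit is 2.16 and 2.05, above the Irx6 level of Ctrl BrM-like cells, so the 0 there says little. MLP-like cells, where Irx5 was high, had 1 and 2 Irx6 UMIs.

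**Figure D3:**
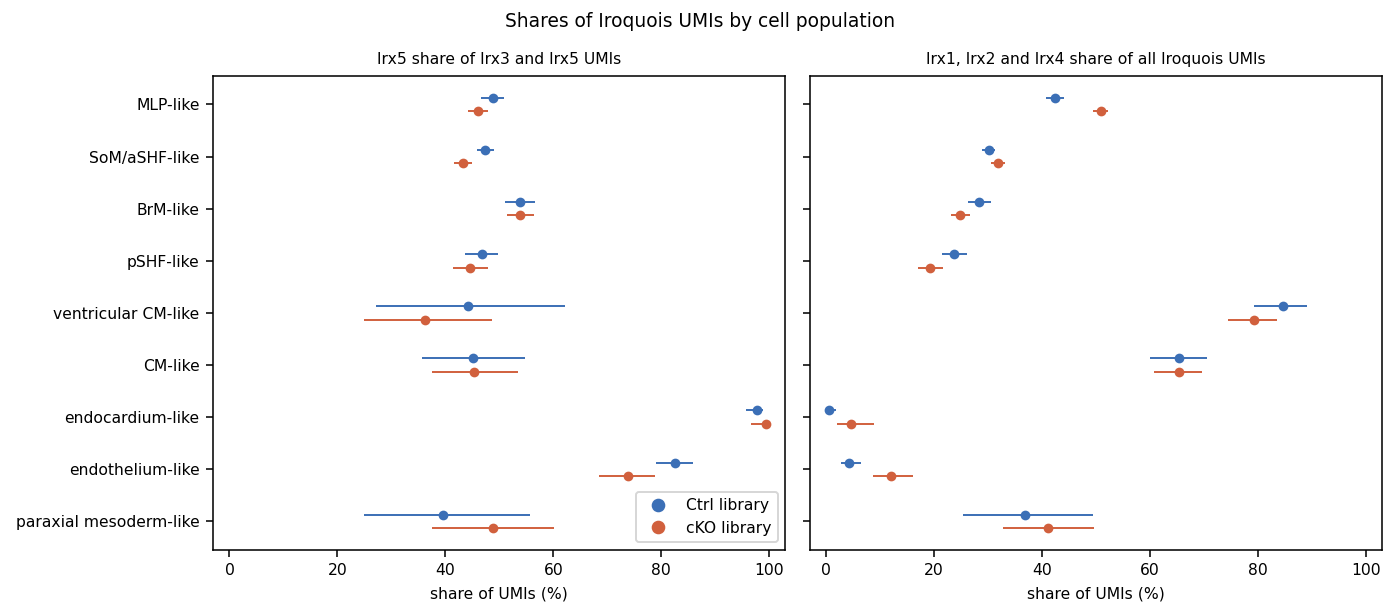
Share of Irx5 among the UMIs of Irx3 and Irx5 (left) and share of Irx1, Irx2 and Irx4 among all Iroquois UMIs (right), in percent, by population (y axis) and library (blue, Ctrl; orange, cKO), with exact 95% binomial intervals. Endocardium-like cells lie at 97.7% and 99.4% in the left panel, and ventricular CM-like cells at 84.6% and 79.3% in the right panel.

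The likeness of the patterns was measured over 46 points, 23 clusters in each of 2 libraries, as Pearson's r of log2(level + 5). The points of a library share its depth and its embryos, so r is a description only. Of 9903 genes the one most like Irx1 was Irx2 (r = 0.924), followed by the lncRNA Crnde (0.839), which lies beside Irx5, and by Irx3 (0.822). The genes most like Irx2 were Irx1, Spry2 (0.751), an inhibitor of FGF signalling, and Irx3 (0.749). Irx3 was most like Crnde (0.867), Irx1 and Irx5 (0.774). Irx5 was most like Crnde (0.779), Irx3 and Sulf1 (0.694), which encodes a heparan sulfate sulfatase. Irx4 stood outside this set, with r of 0.371 to Irx2 and -0.0768 to Irx5. Its nearest genes were Fcmr (0.963), Gpr22 (0.946) and Myoz2 (0.930), a sarcomere gene, and its r rests on the 2 points of a single cluster.

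Co-detection was used to ask whether members were met in the same cells more often than their shares within a cluster of cells predict. Cells were thinned to 5000 UMIs, and the expected number was made within each cluster and library and then summed. A cell with several members can enter several pairs, so sums over pairs count joint detections and not cells. Their intervals treat these entries as separate and are therefore too narrow. Over the 6 pairs of genes within a chromosomal cluster, 1180 joint detections were observed where 859 were expected, a ratio of 1.37 (1.30 to 1.45). Over the 9 pairs between the chromosomal clusters, 1666 were observed, a ratio of 1.20 (1.14 to 1.26). In the Ctrl library the ratio was 1.40 (1.28 to 1.52) within and 1.31 (1.22 to 1.41) between, and these intervals overlapped. In the cKO library it was 1.35 (1.25 to 1.46) within and 1.11 (1.04 to 1.19) between, and they did not overlap as computed. Since these intervals are too narrow, no difference is read from this.

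Of the well-counted pairs Irx1 with Irx2 had the highest ratio, 1.60 (1.35 to 1.89) in the Ctrl library and 1.57 (1.37 to 1.80) in the cKO library. Irx3 with Irx5 gave 1.35 (1.22 to 1.49) and 1.26 (1.14 to 1.39). The 4 pairs that joined Irx1 or Irx2 with Irx3 or Irx5 lay between 1.28 and 1.35 in Ctrl and between 1.03 and 1.19 in cKO. Pairs with Irx4 or Irx6 were met in at most 12 cells of a library, and their intervals included 1. Within MLP-like cells Irx1 with Irx2 gave 1.38 (1.18 to 1.61) over both libraries, and Irx3 with Irx5 gave 1.10 (0.9502 to 1.27), which includes 1. The order of pairs was not the same in every class. In SoM/aSHF-like cells Irx3 with Irx5 gave 1.19 (1.051 to 1.34), below Irx2 with Irx5 at 1.28 (1.07 to 1.51), and in pSHF-like cells 2.37 (1.84 to 3.01), below Irx1 with Irx3 at 2.79 (1.87 to 4.01), with overlapping intervals in each case. Differences among the cells of a cluster also enter these ratios and were not measured separately.

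**Figure D4:**
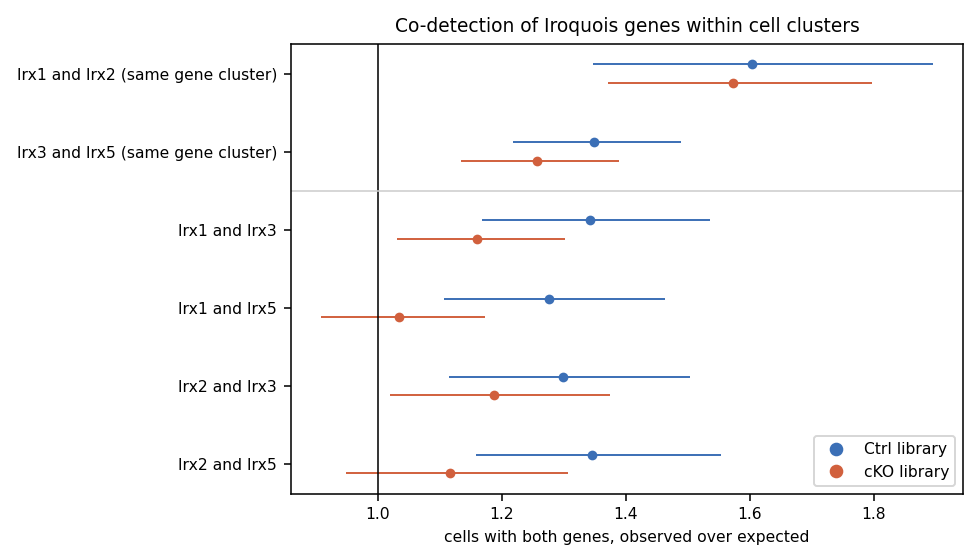
Cells with UMIs of both genes, as observed over expected (x axis), for the 6 pairs of Irx1, Irx2, Irx3 and Irx5 (y axis) in the Ctrl (blue) and cKO (orange) libraries, with 95% Poisson intervals and a line at 1. Irx1 with Irx2 lies at 1.60 and 1.57, and Irx1 with Irx5 at 1.28 and 1.03.

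UMIs of several members were often found in the same MLP-like cell. With all UMIs, 43.2% of Ctrl and 44.8% of cKO MLP-like cells had UMIs of 3 or more Iroquois genes, and 13.4% and 12.3% had none. UMIs of both chromosomal clusters were found in 56.4% and 57.6%. In erythroid-like cells, which should lack these genes, 1.90% had 3 or more and 2.53% had both, at medians of 25232.5 UMIs per cell beside 14968 and 14453 in MLP-like cells. After thinning, cells with members of the chromosome 13 cluster alone were 14.7% (12.2 to 17.5) of Ctrl and 21.5% (19.2 to 24.0) of cKO MLP-like cells, and these intervals did not overlap. Cells with members of the chromosome 8 cluster alone were 29.9% (26.6 to 33.4) and 25.4% (22.9 to 28.0), which overlapped.

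The libraries were compared by the ratio of levels, cKO over Ctrl. A gene was counted as past the threshold at 1.5-fold, provided that it reached 10 CPM and 30 UMIs in either library. This is a rule of size and not a test. The median log2 ratio of all genes that could be counted was -0.11 over all kept cells, so most genes read slightly lower in the cKO library. Over all kept cells Irx1 was at 22.8 and 29.3, a log2 ratio of 0.36 (0.29 to 0.44), and Irx5 at 44.3 and 35.5, a log2 ratio of -0.32 (-0.38 to -0.26). None of the 4 members that could be counted was past 1.5-fold, where 11.7% of 7839 genes were.

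In MLP-like cells the chromosomal clusters had opposite directions. The summed level of Irx1, Irx2 and Irx4 was 128 and 146 CPM in Ctrl and cKO, a log2 ratio of 0.20 (0.10 to 0.29). The summed level of Irx3, Irx5 and Irx6 was 174 and 142, a log2 ratio of -0.29 (-0.38 to -0.21). The higher sum came from Irx1, at 0.34 (0.23 to 0.46), since Irx2 was at -0.068 (-0.22 to 0.082). Irx3 was at -0.22 (-0.34 to -0.10) and Irx5 at -0.38 (-0.50 to -0.25), so both were lower in the cKO library. None of these 4 genes was past 1.5-fold, against 16.5% of 7739 genes in the class.

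The MLP-like class had 2 clusters. In the larger, led by Irx1, Rdh10 and Sall1, Irx1 had a log2 ratio of 0.34 (0.21 to 0.47), Irx3 -0.32 (-0.45 to -0.19) and Irx5 -0.40 (-0.54 to -0.26). In the other, led by Cpa1, Meox1 and Cxcl12, Irx1 had 0.26 (0.0092 to 0.52), Irx3 0.039 (-0.21 to 0.29) and Irx5 -0.35 (-0.60 to -0.10), so the interval of Irx3 included 0 there. The sum of Irx1, Irx2 and Irx4 differed between cells of the 2 sexes. Its log2 ratio was 0.33 (0.21 to 0.46) among MLP-like cells with Xist UMIs and no Y-linked UMI and -0.018 (-0.17 to 0.13) among those with Y-linked UMIs and no Xist UMI. In the same sets Irx1 was at 0.45 and 0.21 and Irx2 at 0.14 and -0.40. Epithelial markers summed to 51.9 and 63.0 CPM in Ctrl and cKO MLP-like cells, with 5 of 6 detected in each, and neural crest markers to 9.05 and 14.0, with 4 and 6 detected. Their part in these ratios was not tested.

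In BrM-like cells, the progenitors of the branchiomeric muscles, Irx1, Irx3 and Irx5 were all higher in the cKO library. Irx1 was at 26.7 (23.9 to 29.9) and 36.2 (32.9 to 39.9), a log2 ratio of 0.44 (0.22 to 0.65). Irx3 had a log2 ratio of 0.34 (0.18 to 0.50) and Irx5 of 0.34 (0.20 to 0.49), from the levels given above. Irx2 was at -0.53 (-0.86 to -0.21), but its direction turned in other clusterings, to 0.0021 without integration and 0.13 on the first clustering pass. None of the 4 was past 1.5-fold, where 18.0% of 7659 genes were. These values depended on which cells the class held. In 5 other clusterings of the cells the summed log2 ratio of Irx3, Irx5 and Irx6 lay between 0.68 and 0.76, against 0.40 here, and that of Irx1, Irx2 and Irx4 between 0.35 and 0.67, against 0.14. In all 5, Irx1, Irx3 and Irx5 were past 1.5-fold, at 0.63 to 0.90, 0.67 to 0.71 and 0.60 to 0.70. The share of all genes past 1.5-fold was not computed in these 5, so these calls have no background beside them. One of the 5 differed from the clustering used here only in the processor setting of the linear algebra library, and its summed log2 ratios were 0.71 and 0.36.

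The 2 BrM-like clusters differed in Irx3 and Irx5, whose intervals did not overlap. In the one led by Col25a1, Lhx2 and Tlx1, Irx1 was at 15.8 and 25.0 (log2 ratio 0.66, 0.30 to 1.03), Irx3 at 36.0 and 60.8 (0.76, 0.52 to 0.99) and Irx5 at 45.8 and 71.1 (0.63, 0.42 to 0.85). All 3 members that could be counted there were past 1.5-fold and higher, where 4.44% of genes were. In the other, led by Tlx1, Pcp4 and Gng11, Irx3 had a log2 ratio of -0.068 (-0.29 to 0.15) and Irx5 of 0.034 (-0.17 to 0.24), which include 0. There Irx2, at 30.4 and 18.96, was the 1 of 4 members past 1.5-fold, and lower, where 18.2% of genes were. The class values also differed between cells of the 2 sexes. Irx5 was at 0.54 (0.34 to 0.74) among BrM-like cells with Xist UMIs alone and at -0.063 (-0.32 to 0.19) among those with Y-linked UMIs alone.

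Irx6 had the largest ratio of the members in the BrM-like class, 2.57 (1.74 to 3.51) on the log2 scale, at a level under 10 CPM and therefore outside the count. An Irx6 UMI was found in 1.95% of Ctrl and 8.63% of cKO BrM-like cells, and after thinning in 0.755% (0.246 to 1.75) and 3.31% (2.17 to 4.82). Unlike Irx3 and Irx5, it was higher in both BrM-like clusters, with 5 and 33 UMIs in the Tlx1-led and 9 and 49 in the Col25a1-led cluster. It was also higher in both sexes, at 2.19 among cells with Xist UMIs alone and 3.33 among those with Y-linked UMIs alone. Both values rest on few Ctrl UMIs, since the whole class had 14. The share of BrM-like cells with no Iroquois UMI was 56.6% (52.8 to 60.5) in Ctrl and 42.4% (38.9 to 46.0) in cKO after thinning. Epithelial markers summed to 18.5 and 33.9 and neural crest markers to 16.7 and 6.66 CPM in Ctrl and cKO BrM-like cells, with 6 and 6 and with 6 and 5 of 6 detected, and their part was not tested.

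**Figure D5:**
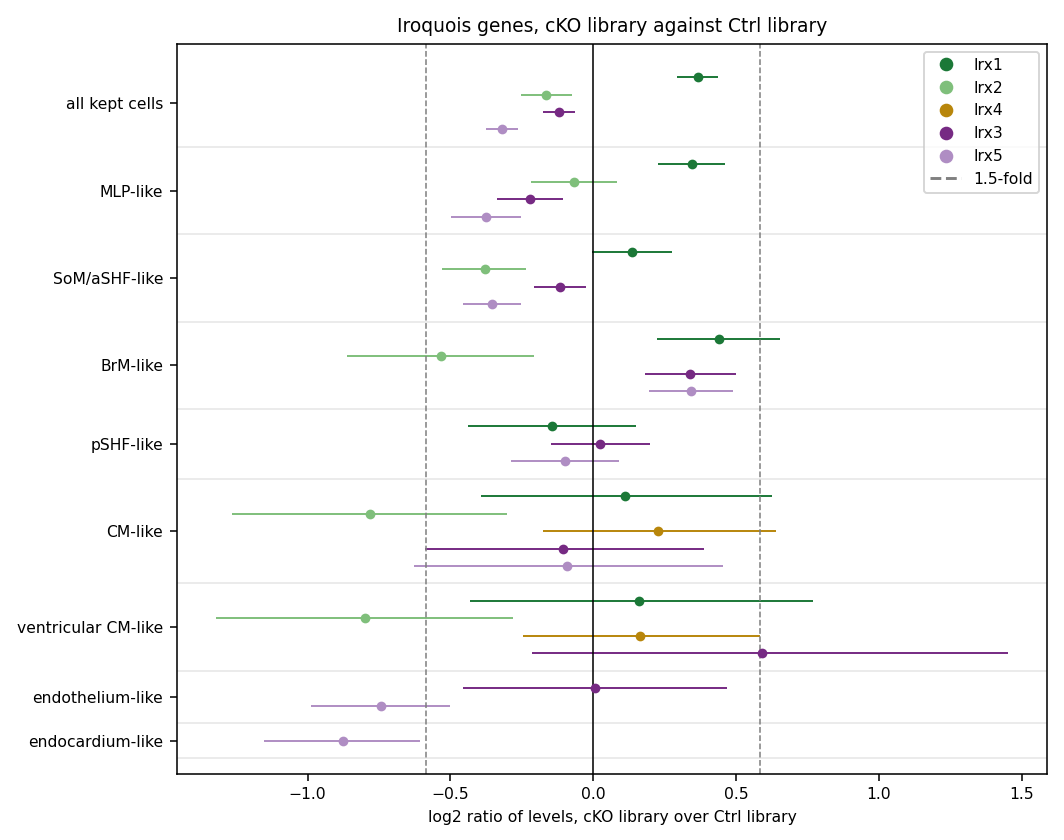
Log2 ratio of levels, cKO library over Ctrl library (x axis), for the members that reached 10 CPM and 30 UMIs in either library, by population (y axis) and gene (colour), with exact 95% intervals and dashed lines at 1.5-fold. In endocardium-like cells Irx5 lies at -0.88, and in BrM-like cells Irx3 and Irx5 lie at 0.34 and Irx2 at -0.53.

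In the remaining progenitor classes no counted member reached 1.5-fold over the whole class. In SoM/aSHF-like cells Irx1 had a log2 ratio of 0.13 (-0.0052 to 0.28), Irx2 -0.38 (-0.53 to -0.23), Irx3 -0.12 (-0.21 to -0.025) and Irx5 -0.35 (-0.46 to -0.25), where 9.61% of 7626 genes were past that size. In pSHF-like cells the intervals of Irx1, Irx3 and Irx5 included 0, where 11.5% of genes were past 1.5-fold. Irx2 was at 5.64 and 2.55 CPM there, a log2 ratio of -1.15 (-1.67 to -0.64), at a level too low to be counted. The 3 pSHF-like clusters differed in Irx5. In the one led by Dock9, Igfbp7 and Arl4a, Irx5 was at 19.8 and 11.01. Its log2 ratio there was -0.85 (-1.30 to -0.40), and it was the 1 of 2 counted members past 1.5-fold, lower, where 11.7% of genes were. In the largest, led by Wnt4, Cxcl13 and Cldn11, Irx5 had a log2 ratio of -0.017 (-0.27 to 0.24), and in the remaining cluster 0.35 (-0.055 to 0.76). The sets by sex went opposite ways in pSHF-like cells, among those with Xist UMIs alone and Y-linked UMIs alone, with Irx1 at -0.61 (-1.09 to -0.13) and 0.25 (-0.21 to 0.70), Irx3 at -0.43 (-0.72 to -0.15) and 0.46 (0.20 to 0.72), and Irx5 at -0.53 (-0.84 to -0.23) and 0.33 (0.033 to 0.64). In SoM/aSHF-like cells Irx2 was at -0.72 and 0.056 in these sets. The share of all genes past 1.5-fold was not computed in the sets by sex, so no call is made there.

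In ventricular CM-like cells Irx4 had a log2 ratio of 0.16 (-0.25 to 0.58) and Irx1 of 0.16 (-0.43 to 0.77), both of which include 0. Irx2, at 55.9 and 32.2, was lower in the cKO library, with -0.80 (-1.32 to -0.28). Irx3 was just past 1.5-fold in the other direction, at 15.4 and 23.2, but its log2 ratio of 0.59 (-0.21 to 1.45) included 0, and with 19 and 44 UMIs it could be counted through the cKO library alone. With it, 2 of 4 counted members were past 1.5-fold, where 16.9% of 5928 genes were. Neither call held throughout. Irx2 was at -0.39 with doublets kept and -0.53 without integration, and Irx3 at 0.028 without integration, 0.33 at a lower clustering resolution, and 0.0098 and 1.66 among cells with Xist UMIs alone and Y-linked UMIs alone. Over the whole CM-like class Irx4 had a log2 ratio of 0.23 (-0.18 to 0.64). There 1 of 5 members, Irx2, was past 1.5-fold, at 16.1 and 9.34 CPM, against 13.4% of genes. Irx2 reached 10 CPM in the Ctrl library alone, so it could be counted only as lower, and nothing is read from that call. With doublets kept it was at -0.24. Among CM-like cells with Xist UMIs alone Irx1 was at 0.77 (-0.0020 to 1.60), an interval that includes 0.

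Irx5 in endocardium-like cells was lower in the cKO library, with a log2 ratio of -0.88 (-1.15 to -0.61). It was the single member that could be counted there, and 14.1% of 7334 genes were past 1.5-fold in that direction. The ratio was -0.82 among cells with Xist UMIs alone and -0.81 among cells with Y-linked UMIs alone, of the same direction in each sex. In the Cldn5-led cluster Irx5 had a log2 ratio of 0.49 (-0.13 to 1.12), which includes 0. Over the endothelium-like class Irx5 was at 62.9 and 37.6 and 1 of 2 counted members was past 1.5-fold, against 13.7% of genes. Among cells of the class with Xist UMIs alone that call was lost, with Irx5 at -0.40 (-0.78 to -0.019), while Irx3 was at -0.93 (-1.71 to -0.19).

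Outside the named classes, an unnamed cluster of 366 Ctrl and 636 cKO cells, led by Crym, Fst and Ebf2, had high Iroquois levels. Irx1 was at 47.3 and 56.4 CPM, Irx2 at 14.4 and 23.6, Irx3 at 61.4 and 44.3 and Irx5 at 83.5 and 49.6. The log2 ratio was 0.71 (0.34 to 1.09) for Irx2 and -0.75 (-0.94 to -0.56) for Irx5, so 2 of 4 counted members were past 1.5-fold, in opposite directions, where 14.0% of genes were. By contrast, in the unnamed cluster led by Plagl1, Dsg2 and Prnp these 4 genes were between 0.472 and 4.34.

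In the paraxial mesoderm-like cluster led by Pax3, Tcf15 and Dmrt2, Irx1 had 4 UMIs in the Ctrl library and 32 in the cKO library, at 1.31 and 15.4 CPM, and Irx3 was at 6.21 and 17.3. Both reached 10 CPM and 30 UMIs in the cKO library alone, so they could be counted only as higher, and nothing is read from them beside the 3.90% of genes past 1.5-fold in that direction. Tbx1 was at 1.45 and 9.27 in the paraxial mesoderm-like class, and its part was not tested.

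Of the 8 listed ventricle and conduction genes, 5 could be counted in ventricular CM-like cells, and 3 were past 1.5-fold lower in the cKO library, where 10.4% of genes were. They were the gap junction gene Gja1 at 47.8 and 21.6 (log2 ratio -1.15) and the transcription factor genes Hand1 at 47.8 and 29.5 (-0.70) and Hey2 at 45.4 and 28.5 (-0.67). The median was -0.67, beside -0.027 for all genes of the cluster, while Irx4 was at 0.16.

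Of the 24 genomic neighbours, 10 could be counted in BrM-like cells and 10 in MLP-like cells, and 0 were past 1.5-fold in either class, where 18.0% and 16.5% of all genes were. Crnde, the lncRNA beside Irx5, had a log2 ratio of 0.31 (-0.083 to 0.71) in BrM-like and 0.20 (-0.13 to 0.54) in MLP-like cells, and both include 0. Fto, whose introns are known to hold enhancers of Irx3, was at 35.8 and 24.0 in BrM-like cells, a log2 ratio of -0.58 (-0.80 to -0.36). In ventricular CM-like cells 1 of 6 was past 1.5-fold, against 16.9% of all genes. It was Aktip, at 11.3 and 21.6. Aktip had enough UMIs to be counted in the cKO library alone. It could therefore be counted only as higher, and nothing is read from that call. Irx3os, the noncoding RNA beside Irx3, had 39 and 23 UMIs in MLP-like cells.

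Promoter windows of 250 bases before to 50 after the start were given by RefSeq (GRCm38.p6) for Irx2, Irx3 and Irx4, 3 of the 6 members. Their GC content was 69.0%, 56.0% and 70.7%, with 25, 14 and 31 CpG pairs. The letters AGGTGT, a core of T-box elements, and ACANNTGT, a motif of Iroquois factors, were searched on both strands. Neither was found in the 3 windows, while 13.7% and 7.38% of all 32851 windows of that length held them. This says only that those letters are not in these windows.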

How the data were processed

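Per the labels and the authors' methods, GFP+ DAPI- cells were run on the 10x Chromium 3′ system, and counts were made with Cell Ranger 3.1.0 on mm10. The deposited files hold raw UMI counts per gene and cell, 132017331 UMIs in 7418 Ctrl cells and 162874391 in 10281 cKO cells. Cells with at least 1000 genes and at most 10% mitochondrial UMIs were kept. Those with the highest Scrublet scores (scanpy 1.11.5), at 0.8% per 1000 cells, were removed as presumed doublets (416 and 804), since the automatic threshold marked 0.0143% and 8.49%. The libraries were clustered together (Seurat 5.3.0, RPCA, 30 dimensions, resolution 1) without the members and without 1242 genes that differed at least 2-fold between libraries within a class. A cluster took a class name from at least 3 markers and 50% of a list; these thresholds were set after clusters were seen. The linear algebra library was fixed to 1 processor setting, because clusters moved with it. UMIs were summed per library and population. Poisson intervals were used for levels, exact conditional intervals for ratios and Clopper-Pearson intervals for shares. Genes of the lists were named if past 1.5-fold in the populations described, apart from 1 neighbour lower in the CM-like class. The 3 most alike genes were named by r, and the neighbours Crnde, Fto and Irx3os by position. Interval coverage and co-detection were checked on simulated data. The members and lists were chosen with earlier results of these data known. Coordinates come from the RefSeq table of GRCm38.p6. The list of other TALE genes is not reported here.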

Additional observations from a re-analysis of the deposited data

How the results depend on the processing

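No paired analysis was possible because each group has 1 library, and for the same reason no library could be left out. Of 77 recomputed values of the summed ratios, the CM-like Irx4 ratio and co-detection, 50 stayed within the interval of the reported value, 26 moved and 1 reversed, that is, an interval without 0 met a value of the other sign. In BrM-like cells every other clustering moved both summed ratios up. For Irx1, Irx2 and Irx4 and for Irx3, Irx5 and Irx6 they were 0.58 and 0.68 with doublets kept, 0.60 and 0.76 without integration, 0.35 and 0.69 at resolution 0.6, and 0.67 and 0.75 on the first clustering pass. Under another processor setting, an alternative chosen after seeing the data, they were 0.36 and 0.71. In MLP-like cells the ratio of Irx3, Irx5 and Irx6 was -0.38 with doublets kept, -0.44 without integration, -0.39 at resolution 0.6 and -0.46 on the first pass, and that of Irx1, Irx2 and Irx4 was 0.10 without integration. Among cells with Xist UMIs alone, Irx1, Irx2 and Irx4 gave 0.33 in MLP-like cells, and Irx3, Irx5 and Irx6 gave 0.51 in BrM-like cells. Among cells with Y-linked UMIs alone, Irx1, Irx2 and Irx4 reversed to -0.018 in MLP-like cells. In BrM-like cells they gave -0.036, a change of sign within the reported interval. In that set Irx3, Irx5 and Irx6 gave -0.38 in MLP-like and 0.17 in BrM-like cells. With the median log2 ratio set to 0, Irx1, Irx2 and Irx4 gave 0.29 over all kept cells and 0.31 in MLP-like cells, and Irx3, Irx5 and Irx6 gave -0.095, -0.18 and, in BrM-like cells, 0.51. Co-detection with expected numbers over all cells of a library was 2.23 within and 1.91 between the chromosomal clusters. Of 806 values for single members and pairs, 207 moved and 4 reversed. The reversed ones were Irx2 in BrM-like cells at 0.0021 without integration and 0.13 on the first pass, and, among cells with Y-linked UMIs alone, Irx5 in BrM-like cells at -0.063 and Irx2 in SoM/aSHF-like cells at 0.056. Of all 317 recomputed ratios, 32 changed sign, 19 of them within the reported interval, and 35 crossed 1.5-fold. Irx5 in endocardium-like cells stayed between -0.95 and -0.78, except that with doublets kept no cluster met the rule for that name. Depth limits Irx4 and Irx6 outside their main populations.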
